A study of Mus musculus with 10 samples.

Results

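Malat1, Neat1, Gas5, Meg3 and H19 are long noncoding RNA genes, and every probe set that the array's annotation gives to them is described here across 10 arrays of cultured mouse leukemia stem cell lines. The 5 genes had 26 of the 45101 probe sets on the array: 7 for Malat1, 2 for Neat1, 5 for Gas5, 11 for Meg3 and 1 for H19. The genes were chosen by name with earlier results of these arrays known, and the measured values that weighed in the choice were those of Malat1, whose probe sets lie far apart. Malat1 is therefore described by its values and their spread, with no test. The other 4 genes carry the tests of a fit over all probe sets, and those tests are not independent of the earlier results.

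The arrays hold 4 groups. The inhibitor group is RH-RAS lines 1 and 3 after 4 days in 1 µM SGC0946, an inhibitor of Dot1l, the enzyme that methylates lysine in the globular domain of histone H3. Another group is 3 lines of NUP98-JARID1A, a fusion gene that joins nucleoporin and histone demethylase sequences, and 1 line carries the MLL-AF9 fusion. The reference is 4 untreated RH-RAS lines, which carry the DNA methyltransferase mutant DNMT3A R882H together with NRAS-G12D and are described as independently derived. All lines grew in Opti-MEM with serum and stem cell factor, and each sample is 1 array. No vehicle is named for the untreated lines, and independent derivation is not stated for the NUP98-JARID1A lines, so p-values measure the spread between these arrays only.

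Long noncoding RNAs act as RNA rather than as a template for protein. Malat1 is an abundant nuclear RNA that gathers in nuclear speckles beside splicing factors, and its processed end releases a small cytoplasmic RNA, mascRNA. Neat1, its chromosomal neighbour, is the scaffold on which paraspeckle bodies assemble. Gas5 is the host transcript of several small nucleolar RNAs; it starts with a pyrimidine tract like the messengers of ribosomal proteins, is degraded in translation by nonsense-mediated decay, and can bind the glucocorticoid receptor. Meg3 and H19 are imprinted RNAs made from the maternal chromosome, H19 being also the precursor of the microRNA gene Mir675.

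RefSeq start regions (GRCm38.p6) were found for 3 of the 5 genes, Malat1, Gas5 and Meg3, with 5 starts in all. The 3 below are shown because Malat1 and Gas5 were both lower under SGC0946 while Meg3 showed no such difference. Each runs 5′ to 3′ from 250 bases before the start to 50 after it, in lower case, with the transcribed bases and the letters TGACGTCA in capitals. The motif, the core of a cyclic AMP response element, was chosen after the sequences were seen and searched on both strands, where it reads the same.
Gas5, chr1:161034916-161035215, plus strand: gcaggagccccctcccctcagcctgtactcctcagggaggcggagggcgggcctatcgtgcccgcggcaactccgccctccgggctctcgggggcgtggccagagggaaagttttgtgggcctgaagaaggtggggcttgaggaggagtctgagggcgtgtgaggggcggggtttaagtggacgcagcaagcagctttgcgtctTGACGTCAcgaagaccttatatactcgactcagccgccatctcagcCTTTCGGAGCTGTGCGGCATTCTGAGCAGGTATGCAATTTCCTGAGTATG
Malat1, chr19:5802623-5802922, minus strand: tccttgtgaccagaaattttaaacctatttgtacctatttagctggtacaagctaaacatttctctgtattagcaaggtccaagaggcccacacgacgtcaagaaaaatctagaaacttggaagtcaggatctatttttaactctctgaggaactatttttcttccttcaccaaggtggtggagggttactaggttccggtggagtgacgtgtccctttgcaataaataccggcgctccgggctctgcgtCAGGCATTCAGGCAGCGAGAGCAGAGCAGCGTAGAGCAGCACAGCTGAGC
Meg3, chr12:109540746-109541045, plus strand: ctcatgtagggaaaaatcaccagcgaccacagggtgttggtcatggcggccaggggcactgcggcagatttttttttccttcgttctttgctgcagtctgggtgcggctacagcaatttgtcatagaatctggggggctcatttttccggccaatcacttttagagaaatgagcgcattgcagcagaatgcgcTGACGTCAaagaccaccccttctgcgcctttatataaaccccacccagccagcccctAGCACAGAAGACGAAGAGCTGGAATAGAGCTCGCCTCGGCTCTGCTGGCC

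TGACGTCA stands 46 bases before this Gas5 start and 57 before this Meg3 start, counted from its first letter, and is not in the Malat1 window. It occurs in 1.79% of the 32851 RefSeq windows of the same length. The Gas5 transcript opens with a C and a run of 5 pyrimidines in all, as in 2.51% of those windows. The other Gas5 start and the other Meg3 start have neither feature, so in both genes the start shown is the one that holds TGACGTCA. GGGCGG, searched on both strands, occurs 3 times in the Gas5 window shown and in 35.7% of all windows, and is not in those of Malat1 and Meg3. These are descriptions of letters, not of binding.

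Values are log2 intensities per probe set, and array medians lay between 5.72 and 5.82. Testing was limited to probe sets with signal over the array median in 2 arrays or more, which kept 25013 probe sets, 20 of the 26 here. All probe sets of Malat1, Neat1 and Gas5 were kept, with 6 of Meg3 and 0 of H19. A call is a limma adjusted p below 0.05 over all 25013. Under SGC0946, 8.93% of all probe sets were called, and of the 13 tested probe sets other than Malat1's 3 were called, all lower. In NUP98-JARID1A lines 51.3% were called, and 6 of the 13 were, 4 higher and 2 lower, which is near that share. Levels of different probe sets are not compared with each other, since each has its own probes.

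Other features of the arrays moved with these groups. In untreated RH-RAS lines, line 4 correlated with lines 1 to 3 at r = 0.993, against 0.996 to 0.997 among lines 1 to 3. The mean log2 level of 7 monocyte and macrophage markers was 11.54 to 11.65 in SGC0946 arrays, 9.39 to 10.45 in NUP98-JARID1A lines, 8.83 in the MLL-AF9 line, 9.05 in untreated line 4 and 7.33 to 7.48 in lines 1 to 3. All 7 markers rose under SGC0946. In NUP98-JARID1A lines 3 of the 7 were higher and 3 did not pass. The remaining marker, Fcgr1, was lower (−1.16 ± 0.40, limma adjusted p = 0.0429). The 7 late neutrophil markers were all higher in NUP98-JARID1A lines, at a mean level of 10.00 to 13.07, against 4.77 to 4.94 in untreated RH-RAS lines. Their mean was 10.77 in the MLL-AF9 line, inside the NUP98-JARID1A range, and 5.24 to 5.28 in SGC0946 arrays. Under SGC0946 1 of the 7, Mmp8, was called higher (2.49 ± 0.34, limma adjusted p = 0.00828) and 6 did not pass. For 6 of these 7, no RH-RAS array gave a signal that exceeded its median. Those 6 were kept for testing only through their signal in NUP98-JARID1A and MLL-AF9 arrays. The filter thus left them little room for a lower result, and the count of 7 is not independent of it. Of 7 blood progenitor markers 1 rose and 3 fell under SGC0946, while 4 were higher and 1 was lower in NUP98-JARID1A lines. Kit differed in sign, at −1.98 ± 0.19 under SGC0946 and 1.68 ± 0.19 in NUP98-JARID1A lines (limma adjusted p = 0.00369 and 0.000369). Spi1 was higher in both, at 1.21 ± 0.12 and 1.55 ± 0.09 (limma adjusted p = 0.00407 and 2.54e-05). The 8 fibroblast and stromal markers had a mean of 4.91 to 5.14 on every array. The actin control probe sets, a measure of RNA integrity, differed between their 3′ and 5′ ends by 0.14 to 0.16 in SGC0946 arrays, 0.52 to 0.75 in NUP98-JARID1A lines, 0.52 in the MLL-AF9 line and 0.12 to 0.23 in untreated lines. Gapdh controls differed by −0.12 to −0.03 on all arrays. The part of any of these in the results below was not tested.

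Malat1 separated into probe sets that read well below the untreated RH-RAS lines in NUP98-JARID1A lines and probe sets that did not. Probe set 1418188_a_at read 4.26, 5.15 and 4.71 in NUP98-JARID1A lines 1 to 3, against 10.88, 11.12, 12.02 and 10.81 in untreated RH-RAS lines 1 to 4. The difference was −6.50 ± 0.33 on the log2 scale (SE, n = 3 and 4 arrays), a 90.6-fold lower signal. All 3 NUP98-JARID1A lines lay below every array median there, where RMA values compress differences. In bulk RNA, fewer cells of a type and less RNA per cell cannot be told apart. Probe set 1418189_s_at was also low, at 5.62, 6.44 and 6.01, against 11.80, 11.92, 12.86 and 11.70 in the untreated lines. It differed by −6.05 ± 0.31, or 66.3-fold.

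Another 3 Malat1 probe sets followed, with smaller differences. Probe set 1438403_s_at read 5.92, 5.61 and 5.98 in NUP98-JARID1A lines, against 9.38, 9.62, 10.54 and 9.24 in untreated RH-RAS lines, a difference of −3.86 ± 0.30. Probe set 1452378_at read 5.68, 5.77 and 5.72, against 8.29, 8.36, 8.85 and 7.63 (−2.56 ± 0.25). Probe set 1427285_s_at read 5.29, 5.66 and 5.52, against 7.87, 8.04, 8.04 and 7.09 (−2.27 ± 0.24). In these 5 probe sets, grouped after their values were seen, the NUP98-JARID1A lines read 4.26 to 6.44 and the groups did not overlap; over all tested probe sets 55.7% had no overlap between these groups.

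The remaining 2 Malat1 probe sets differed by less than their SE. Probe set 1429060_at read 8.52, 9.0 and 8.89 in NUP98-JARID1A lines, against 8.77, 8.89, 8.89 and 7.51 in untreated RH-RAS lines, a difference of 0.29 ± 0.34. Probe set 1436202_at read 6.86, 7.0 and 7.25, against 7.66, 7.78, 7.55 and 6.35 (−0.30 ± 0.34). In both probe sets the groups overlapped, only NUP98-JARID1A line 2 in 1429060_at reading above every untreated line, and the lowest untreated value was that of line 4. Without line 4 the differences were −0.04 in 1429060_at and −0.63 in 1436202_at, where the groups then did not overlap.

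The 7 Malat1 probe sets thus lay 6.79 apart on the log2 scale in their NUP98-JARID1A differences, a width for which the gene was selected. Across the 10 arrays the 5 probe sets correlated with each other at r = 0.95 to 1.00, with the other 2 at −0.38 to 0.38, and those 2 with each other at 0.26. The 10 arrays include the 3 NUP98-JARID1A arrays that lie apart in the 5 probe sets. Where each probe set lies along the transcript is not given in the sources used here.

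**Figure D1:**
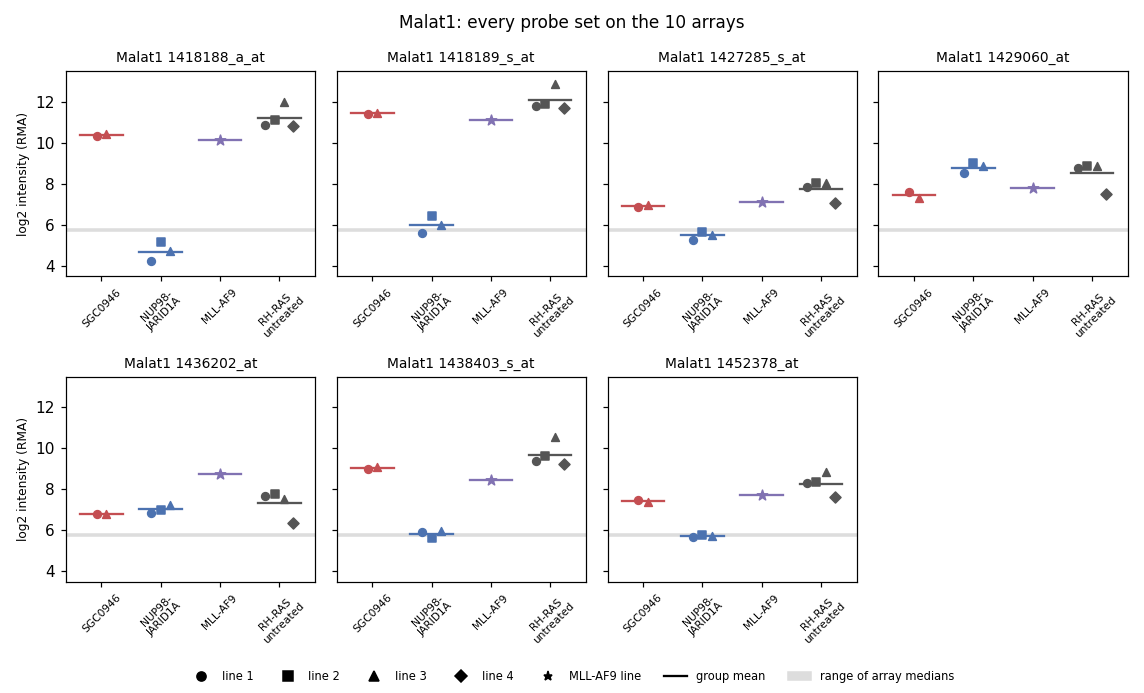
Log2 intensity of each Malat1 probe set (y axis) in SGC0946-treated RH-RAS, NUP98-JARID1A, MLL-AF9 and untreated RH-RAS arrays (x axis), with a symbol per line (a star for MLL-AF9), a bar at each group mean and a grey band over the range of array medians. In 5 probe sets the NUP98-JARID1A lines lie at 4.26 to 6.44, below all other arrays, and in 1429060_at and 1436202_at they overlap with the untreated RH-RAS lines.

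Under SGC0946 the Malat1 probe sets did not separate in this way: all 7 were lower in both treated lines. Probe set 1418188_a_at read 10.33 and 10.43 in treated lines 1 and 3, against 10.88 and 12.02 in the same lines untreated. The mean difference was −1.07 ± 0.39 (SE, n = 2 and 2 arrays compared). Each SE under SGC0946 comes from the limma fit of all 10 arrays. It thus includes the spread between untreated lines 2 and 4 and among the NUP98-JARID1A lines. The differences were −0.55 in line 1 and −1.58 in line 3. Untreated line 3 was the highest of the 4 untreated lines here, and without its array the difference was −0.50, against −1.63 without untreated line 1. The same line was high in 1418189_s_at, which read 11.42 and 11.48 treated, against 11.80 and 12.86 untreated (−0.88 ± 0.36), and in 1438403_s_at, at 9.01 and 9.08 treated, against 9.38 and 10.54 untreated (−0.92 ± 0.34). Without untreated line 3 these differences were −0.35 and −0.34, and without untreated line 1 they were −1.41 and −1.50.

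Both lines moved by more similar amounts in the other 4 Malat1 probe sets, least so in 1452378_at, at −0.80 in line 1 and −1.47 in line 3. Without untreated line 3 the difference of 1452378_at was −0.86, and without untreated line 1 it was −1.42. Probe set 1427285_s_at read 6.88 and 6.97 in the treated lines, against 7.87 and 8.04 untreated (−1.03 ± 0.28). Probe set 1452378_at read 7.49 and 7.38, against 8.29 and 8.85 (−1.14 ± 0.26), and 1436202_at read 6.78 and 6.79, against 7.66 and 7.55 (−0.82 ± 0.39). The difference was widest in 1429060_at, which read 7.60 and 7.30, against 8.77 and 8.89 (−1.38 ± 0.40, or 2.61-fold lower). Over the 7 probe sets the change ran from −1.17 to −0.37 in line 1 and from −1.59 to −0.76 in line 3.

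Untreated line 4 was lower than the mean of lines 1 to 3 in all 7 Malat1 probe sets, by −1.34 to −0.49. In 5 probe sets both treated arrays lay below all 4 untreated arrays, where 46.2% of all tested probe sets had no overlap. In 1429060_at and 1436202_at line 4, at 7.51 and 6.35, reached the treated values. The 7 probe sets lay 0.56 apart in their SGC0946 differences.

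Neat1 was much higher in NUP98-JARID1A lines by 1 of its 2 probe sets. Probe set 1428083_at read 10.86, 10.65 and 10.97 in NUP98-JARID1A lines, against 9.22, 9.02, 9.23 and 7.62 in untreated RH-RAS lines. The groups did not overlap, and the difference of 2.06 ± 0.38, or 4.16-fold, passed the test (limma adjusted p = 0.00339). Probe set 1442881_at read 6.90, 7.28 and 7.39, against 7.35, 7.18, 7.23 and 7.27 (−0.07 ± 0.13, adjusted p = 0.674). Malat1 and Neat1, neighbours in the genome, therefore lay on opposite sides of the untreated RH-RAS lines by 5 and 1 of their probe sets.

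Under SGC0946, Neat1 1428083_at read 8.14 and 7.90 in treated lines 1 and 3, against 9.22 and 9.23 in those lines untreated. The mean difference of −1.20 ± 0.39 did not pass (adjusted p = 0.0982), although the changes in both lines were close, at −1.08 and −1.32. Its SE includes the spread between untreated lines 2 and 4, of which line 4 read 7.62, the lowest of all 10 arrays. Without the array of line 4, and likewise without that of line 2, the same difference passed (adjusted p = 0.00499), as it did with the line as a replicate block (adjusted p = 0.0170). It did not pass with all 4 untreated lines as the control, where it was −0.75 (adjusted p = 0.279), nor among the 6 RH-RAS arrays alone (adjusted p = 0.114). Probe set 1442881_at read 7.22 in both treated lines, against 7.35 and 7.23 untreated (−0.07 ± 0.16, adjusted p = 0.852).

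Gas5 fell under SGC0946, and its 5 probe sets were all lower in both treated lines and below all 4 untreated arrays. Over all tested probe sets 46.2% had no overlap between these groups, in either direction, and 8.93% were called. Of the 5 Gas5 probe sets 3 passed the test and 2 did not. The 5 are assigned to 1 gene, so they are not independent measures. Probe set 1424843_a_at read 7.98 and 7.79 in treated lines 1 and 3, against 9.22 and 9.21 untreated, and fell by 1.33 ± 0.26 on the log2 scale, or 2.52-fold (SE, n = 2 and 2 arrays; adjusted p = 0.0248). Probe set 1419291_x_at read 12.04 and 11.88, against 12.57 and 12.66 (−0.66 ± 0.11, adjusted p = 0.0139). Probe set 1449410_a_at read 11.75 and 11.48, against 12.21 and 12.31 (−0.65 ± 0.12, adjusted p = 0.0225).

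The other 2 Gas5 probe sets gave differences of the same sign. Probe set 1436222_at read 9.24 and 9.19 in treated lines, against 10.14 and 10.23 untreated (−0.97 ± 0.25, adjusted p = 0.0565). Probe set 1455904_at, which the annotation shares between Gas5 and its small nucleolar RNA gene Snord47, read 8.14 and 8.20, against 9.28 and 9.16 (−1.05 ± 0.30, adjusted p = 0.0701). With the line as a replicate block these 2 passed (adjusted p = 0.0243 and 0.0418) and 1449410_a_at did not (adjusted p = 0.0542). Leaving an arm with 1 array, by dropping either treated array or untreated line 1 or 3, left 0 of the 7 Gas5 and Neat1 probe sets called by limma, 5 or 6 of them having an unadjusted p below 0.05, and dropping untreated line 2 or 4 gave 6. Untreated line 4 stood lower than the mean of lines 1 to 3 in every Gas5 probe set, at 8.41 in 1424843_a_at, where the other untreated lines read 9.21 to 9.34.

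Gas5 in NUP98-JARID1A lines differed by probe set. Probe sets 1419291_x_at and 1449410_a_at were higher, at 13.12, 13.00 and 13.05 in NUP98-JARID1A lines, against 12.57, 12.42, 12.66 and 12.34 in untreated RH-RAS lines, for the first (0.56 ± 0.10, adjusted p = 0.00307). The second read 13.10, 12.96 and 12.96, against 12.21, 11.99, 12.31 and 11.99 (0.88 ± 0.11, adjusted p = 0.000515). The probe set shared with Snord47 went the other way, at 8.13, 8.12 and 8.60, against 9.28, 9.59, 9.16 and 8.65 (−0.89 ± 0.23, adjusted p = 0.0139). Probe set 1424843_a_at was at 0.57 ± 0.22 and missed the threshold (adjusted p = 0.0605), but passed without untreated line 4 (0.36, adjusted p = 0.0138). Probe set 1436222_at was at 0.02 ± 0.19 (adjusted p = 0.934).

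**Figure D2:**
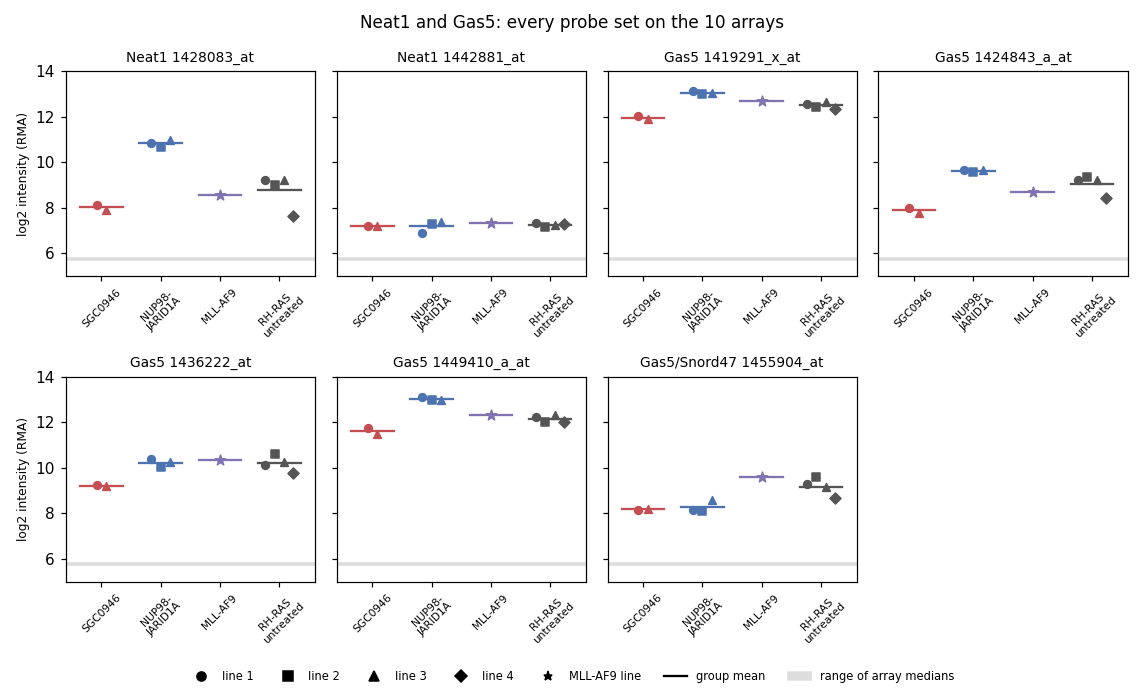
Log2 intensity of each Neat1 and Gas5 probe set (y axis) in SGC0946-treated RH-RAS, NUP98-JARID1A, MLL-AF9 and untreated RH-RAS arrays (x axis), with a symbol per line (a star for MLL-AF9) and a bar at each group mean. The 2 treated arrays lie below the 4 untreated arrays in every Gas5 panel, where 46.2% of all tested probe sets had no overlap in either direction. Untreated line 4 lies apart from the other untreated lines in Neat1 1428083_at and Gas5 1424843_a_at.

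Meg3 was low and nearly flat. Its 11 probe sets lay between 3.16 and 6.87 on all arrays, and each spanned 0.37 to 0.85 over the 10 arrays, where Malat1 probe sets spanned 1.70 to 7.76. None of the 6 tested probe sets passed under SGC0946 by limma, and 0 had an unadjusted p below 0.05 (differences of 0.01 to 0.17). The probe sets that passed in NUP98-JARID1A lines disagreed in sign, with 1426758_s_at at −0.31 ± 0.10 (6.23 in NUP98-JARID1A lines and 6.54 in untreated lines; adjusted p = 0.0375) and 1429257_at at 0.28 ± 0.09 (6.49 and 6.21; adjusted p = 0.0372). The remaining 4 tested Meg3 probe sets did not pass. Of the 5 probe sets left out, 4 were below the median of every array.

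H19 is measured by 1 probe set, 1448194_a_at, which the annotation shares with Mir675. It read 3.90 and 4.23 in SGC0946 arrays, 3.82, 4.13 and 3.83 in NUP98-JARID1A lines, 3.92 in the MLL-AF9 line and 4.33, 4.13, 4.14 and 4.39 in untreated lines. All 10 values were below the array medians, and the probe set was not tested. With no filter on low values, 0 of the 12 Meg3 and H19 probe sets passed under SGC0946 by limma, 1 had an unadjusted p below 0.05, and the lowest adjusted p was 0.190. In NUP98-JARID1A lines 3 of the 12 then passed and 5 had an unadjusted p below 0.05, the lowest adjusted p being 0.0412 for Meg3 1436713_s_at. Over all 45037 probe sets of that fit 1989 were called under SGC0946 and 15423 in NUP98-JARID1A lines, so these counts do not set Meg3 and H19 apart. RMA values carry no detection call, so a low signal is not a measure of absence.

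**Figure D3:**
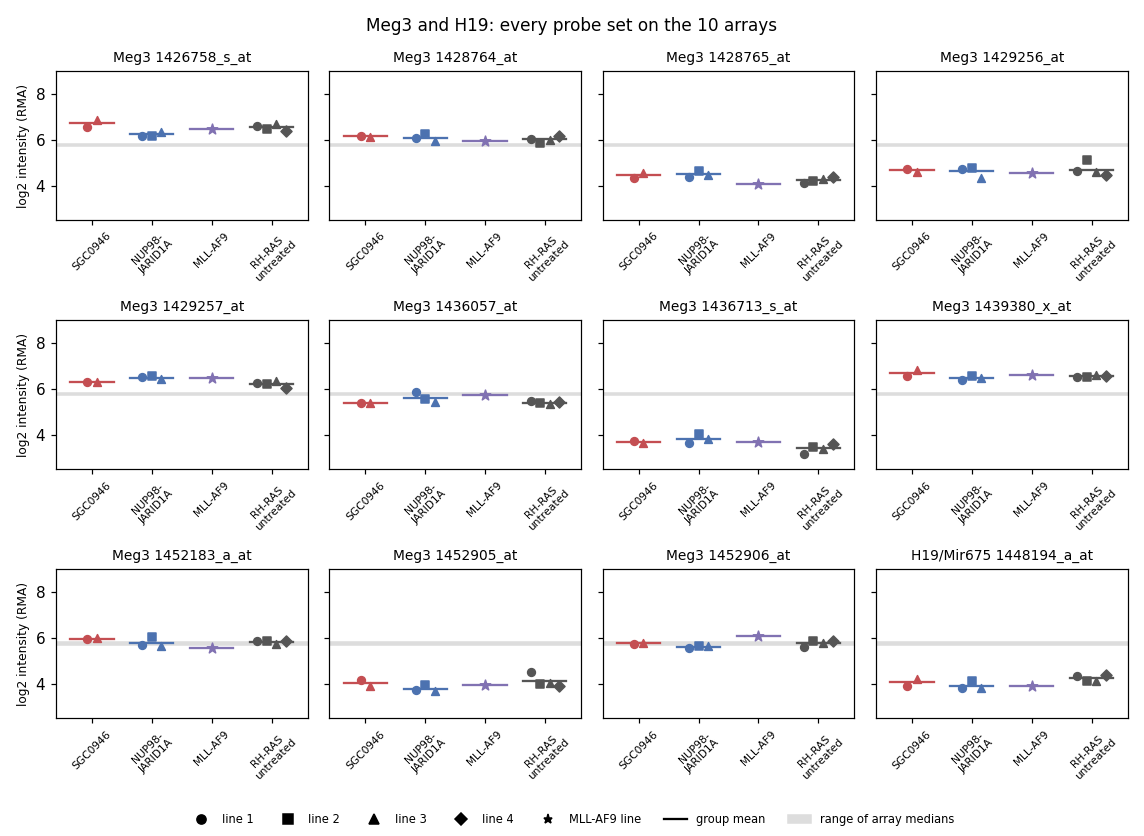
Log2 intensity of the 11 Meg3 probe sets and of the probe set shared by H19 and Mir675 (y axis) in SGC0946-treated RH-RAS, NUP98-JARID1A, MLL-AF9 and untreated RH-RAS arrays (x axis), with a symbol per line (a star for MLL-AF9), a bar at each group mean and a grey band over the range of array medians. Every group lies within a narrow range in each panel, and the H19 panel lies below the grey band throughout.

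The MLL-AF9 line has 1 array, so its values have no replicate check. Of the 20 tested probe sets 3 stood 1 log2 unit or more away from the mean of untreated RH-RAS lines and beyond all 4 of their values, where 14.2% of all tested probe sets did. The count of 3 is near that share. All 3 belonged to Malat1, which has 7 of the 20 probe sets and was chosen with its values known. The count was 1 without untreated line 3 (1436202_at), 4 without line 1 or line 2 and 5 without line 4. With all 4 untreated lines the 3 were 1418188_a_at at 10.12 (−1.09 from the untreated mean), 1438403_s_at at 8.48 (−1.21) and, in the other direction, 1436202_at at 8.77 (1.43). Set against NUP98-JARID1A lines, the MLL-AF9 line was higher by 1.64 to 5.41 in the 5 Malat1 probe sets that were low there. Neat1 1428083_at read 8.56, inside the untreated range. Gas5 1424843_a_at, 1436222_at and 1455904_at read 8.69, 10.33 and 9.58, also inside it. Gas5 1419291_x_at and 1449410_a_at read 12.70 and 12.33, just above the highest untreated values of 12.66 and 12.31.

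**Figure D4:**
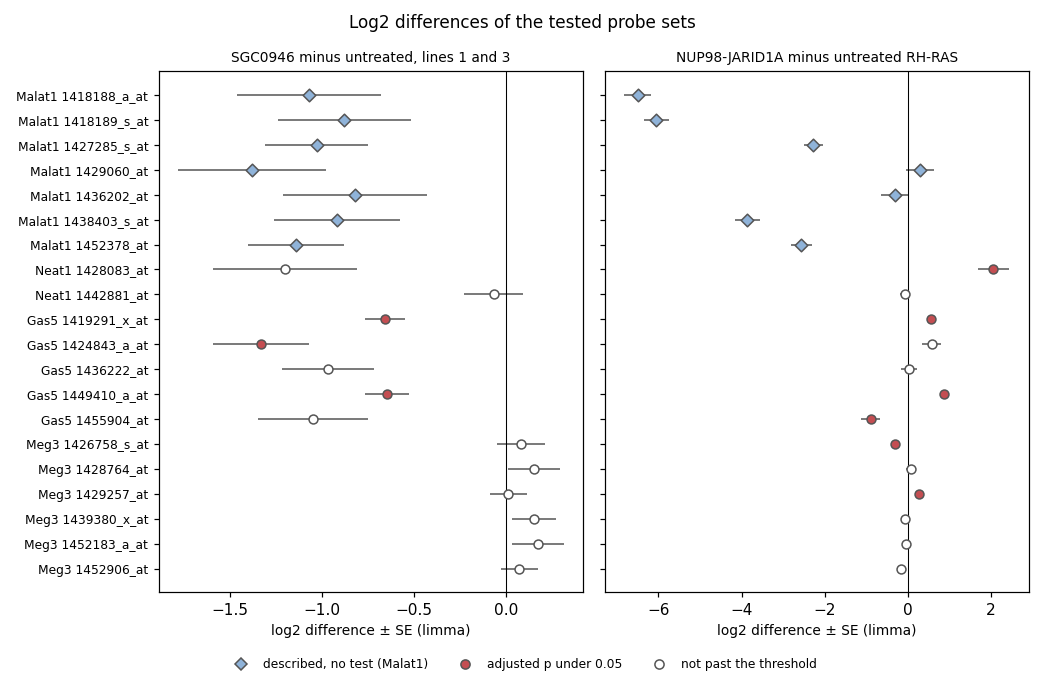
Log2 difference ± SE (x axis) of the 20 tested probe sets (y axis) for SGC0946 minus untreated lines 1 and 3 (left) and NUP98-JARID1A minus the 4 untreated RH-RAS lines (right), on separate scales; diamonds are Malat1, described with no test, filled circles passed the test and open circles did not. The Malat1 differences lie between −1.38 and −0.82 on the left and between −6.50 and 0.29 on the right.

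The genes most like each RNA over the 10 arrays were found among 4821 genes that spanned at least 1 on the log2 scale. For Malat1 1418189_s_at they were Prrc2c (Pearson r = 0.994), Pik3cd (0.992) and Anp32a (0.988), all lowest in NUP98-JARID1A lines. Pik3cd, the delta catalytic subunit of phosphoinositide 3-kinase, averaged 12.17 in SGC0946 arrays, 8.16 in NUP98-JARID1A lines, 12.09 in the MLL-AF9 line and 12.50 in untreated lines. For Neat1 1428083_at they were Ypel5 (0.981), Tmem260 (0.981) and Golgb1 (0.980). For Gas5 1419291_x_at they were Suco (0.989), Fyco1 (0.986) and Alg2 (0.986). The arrays fall into groups that these patterns separate, so the correlations describe group levels and carry no p.

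Other long noncoding RNAs were followed in a list of 82, of which 52 were measured and 34 tested. Under SGC0946, 5 fell, 0 rose and 29 did not pass by limma (17 lower and 2 higher at an unadjusted p below 0.05), with a median difference of −0.36, against 0.00 over all tested probe sets. With 1 probe set per gene, as in this list, 1435 of 11995 were called under SGC0946, 820 higher and 615 lower. Lockd, transcribed beside the cell cycle inhibitor gene Cdkn1b, fell by 1.68 ± 0.40 (6.28 and 6.38 treated, 7.86 and 8.16 untreated; adjusted p = 0.0426). Ftx, of the X inactivation centre, fell by 0.78 ± 0.13 (adjusted p = 0.0166). The small nucleolar RNA hosts Snhg7 and Snhg1 fell by 0.73 ± 0.18 and 0.64 ± 0.11 (adjusted p = 0.0469 and 0.0145).

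In NUP98-JARID1A lines 17 of the 34 were higher, 5 were lower and 12 did not pass, with a median of 0.50. Over all tested probe sets the median was 0.01 and 51.3% were called. With 1 probe set per gene, as in this list, 3898 of 11995 were higher and 2215 lower. Higher calls thus outnumbered lower ones among genes at large too. Hoxb5os, antisense to the Hoxb cluster, was higher by 4.76 ± 0.68 (9.0 to 12.3 in NUP98-JARID1A lines, 5.96 to 6.27 in untreated lines; adjusted p = 0.000970). Morrbid, which represses the death gene Bcl2l11 and so supports the survival of short-lived myeloid cells, was higher by 2.69 ± 0.23 (adjusted p = 0.000116). Xist, which silences the X chromosome, and Ftx were lower, at −2.31 ± 0.28 and −2.30 ± 0.14 (adjusted p = 0.000453 and 3.08e-05).

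Proteins of the bodies that Neat1 and Malat1 occupy were measured as well. None of 25 paraspeckle genes and none of 28 speckle and splicing genes passed under SGC0946 by limma (medians −0.09 and −0.10); at an unadjusted p below 0.05, 2 and 6 were lower and 0 were higher. In NUP98-JARID1A lines 4 paraspeckle genes were higher, 12 lower and 9 did not pass (median −0.26), where 51.3% of all tested probe sets were called. The RNA-binding protein gene Taf15 was lower by −4.49 ± 0.20 (4.25 in NUP98-JARID1A lines, 8.74 in untreated lines; adjusted p = 8.18e-06). Zc3h6 was at −0.95 ± 0.25 and Matr3, of the nuclear matrix, at −0.90 ± 0.11 (adjusted p = 0.0141 and 0.000580), while Fam98a was higher at 0.91 ± 0.08 (adjusted p = 0.000124). Of the speckle and splicing genes 2 were higher, 9 lower and 17 did not pass (median −0.04). The mRNA export gene Thoc2 was at −1.40 ± 0.16 (adjusted p = 0.000372), and the splicing factor genes Srsf10 and Srsf1 were at −0.84 ± 0.09 and −0.76 ± 0.10 (adjusted p = 0.000356 and 0.000642). Clk4, a kinase of splicing factors, was higher at 0.73 ± 0.14 (adjusted p = 0.00326).

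Lists tied to Gas5, Meg3 and H19 are read beside the share called under SGC0946. It was 8.93% of all probe sets, and 1435 of 11995 with 1 probe set per gene, as in the lists. Of 14 tested nonsense-mediated decay factors 1 fell, the endonuclease gene Smg6 (−0.47 ± 0.11, adjusted p = 0.0440), and 13 did not pass (median −0.03). Of 15 genes of the glucocorticoid receptor and its targets, Cebpd and Anxa1 rose by 2.35 ± 0.28 and 2.00 ± 0.40 (adjusted p = 0.00605 and 0.0261), the receptor co-chaperone gene Fkbp5 fell by 0.82 ± 0.13 (adjusted p = 0.0120) and 12 did not pass (median −0.16). Cebpd and Anxa1 are also genes of maturing myeloid cells. Of 18 tested genes of the imprinted list, from 48 listed and 42 measured, 1 fell under SGC0946 and 17 did not pass (median −0.05). It was Igf2r, the receptor that clears insulin-like growth factor 2, at 4.46 and 5.07 in treated lines, against 7.83 and 8.19 untreated (−3.24 ± 0.39, adjusted p = 0.00605).

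In NUP98-JARID1A lines 1 gene of the imprinted list was higher, 6 were lower and 11 did not pass (median −0.18), where 51.3% of all tested probe sets were called. The lower genes included Peg12 (−3.10 ± 0.43, adjusted p = 0.000833), Igf2r (−3.08 ± 0.29, adjusted p = 0.000159) and the ubiquitin ligase gene Ube3a (−1.02 ± 0.10, adjusted p = 0.000170). Among the 6 was also the retinoblastoma gene Rb1 (−0.89 ± 0.15, adjusted p = 0.00226), which is known as imprinted in human and not in mouse. Nonsense-mediated decay factors counted 5 higher, 2 lower and 7 not past (median 0.17), with the decapping cofactor gene Pnrc2 at −1.64 ± 0.31, Smg9 at 0.53 ± 0.08, the release factor gene Gspt1 at −0.53 ± 0.10 and Smg5 at 0.51 ± 0.10 (adjusted p = 0.00351, 0.00125, 0.00315 and 0.00432). Glucocorticoid receptor genes counted 4 higher, 2 lower and 9 not past (median −0.10), with Cebpd at 2.47 ± 0.27, Anxa1 at 2.05 ± 0.31, Nfkbia at 0.82 ± 0.14 and Tsc22d3 at −0.79 ± 0.14 (adjusted p = 0.000300, 0.00122, 0.00201 and 0.00228). Among these 3 lists, the called share of the nonsense-mediated decay factors is near the share over all tested probe sets. The called shares of the imprinted and glucocorticoid receptor lists lie below it. Both comparisons share the untreated lines 1 and 3.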

How the data were processed

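Expression was measured on 10 Affymetrix mouse arrays, 1 per sample, grouped by the sample titles. The authors deposited a log2 signal for every probe set, and RMA is named in the submitters' processing notes. No version or genome build was given. They were used with no further normalisation. Array minima lay between 2.21 and 2.34 and maxima between 14.7 and 14.8, and precision depends on how few arrays there are. Arrays carry no batch label here, so batch and group cannot be told apart.

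Probe sets were named from the platform annotation, which lists 35877 of 45037 non-control probe sets, 34945 with 1 symbol and 932 with several; 99.4% of the first had an Entrez identifier in the RefSeq table of GRCm38.p6. Fits used limma 3.58.1 in R 4.3.3 over 25013 probe sets, with Benjamini-Hochberg adjustment. The SGC0946 effect came from all 10 arrays with 5 coefficients, untreated lines 2 and 4 having their own, and the NUP98-JARID1A difference from the 8 arrays without inhibitor. Scripts were tested on simulated data.

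Genes in lists were represented by the probe set with the highest mean, and up to 4 genes per gene list and comparison were named by the largest difference among those past the test. The members, lists and rules were chosen with earlier results of these data known. Treated and untreated lines 1 and 3 are the same lines, and the labels pair them (correlation of deviations 0.29). Same-numbered NUP98-JARID1A and RH-RAS lines are different lines (−0.04 to 0.03). Alternatives covered pairing, controls, arrays, scaling, filter, prior and probe set choice.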

Additional observations from a re-analysis of the deposited data

Results flagged for a closer look

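Of 26 probe sets examined in the 4 untreated RH-RAS lines, 5 had a line far from the others, by the gap to its nearest neighbour as a share of the whole range. Chance flags about 1 in 20 such groups when they are independent. These probe sets belong to 5 genes on the same 4 arrays, so the flags are not set against that rate. For Malat1 the flags describe values and are no test. In 4 of the 5 flagged probe sets the line was line 4, on the low side. These were Malat1 1429060_at (7.51, against 8.77 to 8.89 in the other lines; gap share 0.915), Malat1 1436202_at (6.35, against 7.55 to 7.78; 0.842), Neat1 1428083_at (7.62, against 9.02 to 9.23; 0.870) and Gas5 1424843_a_at (8.41, against 9.21 to 9.34; 0.866). The fifth was Meg3 1452183_a_at, where line 3 read 5.73, against 5.87 to 5.88 in the others (0.960), a gap that is small in size. Line 4 also had the highest mean of the monocyte and macrophage markers among the untreated lines, at 9.05, and its part in these values was not tested.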

How the results depend on the processing

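Over all probe sets 2234 were called under SGC0946. The count was 3377 with all 4 untreated lines as the control, 3812 in a fit of the 6 RH-RAS arrays alone and 1435 with 1 probe set per gene, where fewer features are tested. Leaving out each array in turn gave 49 (without treated line 3) to 3061, the low counts where an arm is left with 1 array that is assumed to vary like the other groups. With the line as a replicate block 1912 were called, 1489 of them shared. In NUP98-JARID1A lines 12833 were called and 6113 with 1 probe set per gene; a replicate block on line numbers, which are those of different lines, gave 10763. MLL-AF9 counts stayed within 1.5 times the 3544 in every alternative run.

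No difference of a Malat1, Neat1 or Gas5 probe set that was called, or for Malat1 and MLL-AF9 was at least 1, changed sign under the alternatives run. Of their values under all alternatives 382 kept their side of the threshold or moved by no more than the spread, 15 gained a call and 13 lost one, and 2 moved by more, both of Malat1 1418188_a_at under SGC0946; the Gas5 and Neat1 calls of SGC0946 numbered 5 with the block and 5 with all untreated lines as control, against 3. The number of arrays limits these calls, and values near the bottom of the RMA range understate differences.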
